A study of Arabidopsis thaliana with 10 samples.

Results

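The loci described here are the entries of the deposited RNA table whose identifiers read At, a digit and NC, which is a non-coding class beside the AT.G genes, and which held at least 5 raw counts when the 6 RNA libraries were summed. Of 13230 such entries, 711 met this rule, out of 73194 features in the whole table. The members were thus selected on their summed count, so their abundance is given as a description, whereas the difference between genotypes played no part in the choice. Whole Arabidopsis thaliana seedlings of the Ler ecotype were sampled at 5 days of age, after untreated growth on MS medium. One group was the homozygous fve-8 mutant (3 RNA libraries) and the other was E5-4 (3 RNA libraries), called WT here because the labels give it as the wild type. FVE encodes a WD40-repeat protein that acts with histone deacetylases and is best known from the autonomous flowering pathway. The labels number the replicates but do not say that they came from separate cultures, so the p-values cover the spread between these libraries alone, which could be technical.

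Non-coding RNA in plants covers molecules with very different jobs. Small nuclear RNAs (snRNAs) form the core of the spliceosome, small nucleolar RNAs (snoRNAs) guide chemical modification of ribosomal RNA, and long non-coding RNAs (lncRNAs) include miRNA decoys such as IPS1 and antisense transcripts that act on chromatin at loci such as FLC. Many of these RNAs carry no poly(A) tail, and the labels' protocols name a total RNA kit. How far these libraries kept RNAs without a tail was not tested. The deposited table pairs the NC identifiers with no name, position or length, and the RefSeq gene table used for names held 0 of the 711. No locus is therefore given a role, and counts of different loci are not compared as levels, because longer loci collect more reads.

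The 6 libraries held 16161800 to 19599058 counts. FVE itself (AT2G19520) stood at 6.61, 5.63 and 5.40 CPM in fve-8 replicates 1 to 3 and at 9.97, 8.67 and 9.0 CPM in WT replicates 1 to 3, a log2 fold change of -0.65 ± 0.14 (SE, edgeR adjusted p = 0.0184). CPM is the usual depth-scaled count, here on the library size after TMM scaling, which sets the libraries level on the bulk of their features. Transcripts of 4 green-tissue genes summed to 15751 to 19156 CPM in fve-8 and 20069 to 21315 CPM in WT, and those of 4 root genes to 39.2 to 42.6 CPM in fve-8 and 65.4 to 69.2 CPM in WT. Of these lists 1 of 4 and 3 of 4 genes were called lower in fve-8, as were 4 of 4 seed genes (9.46 to 16.9 CPM in fve-8 and 57.6 to 99.7 CPM in WT), while 4 floral organ genes summed to 3.09 CPM at most in any library. Their part in the results below was not tested, and in whole seedlings fewer cells of a type cannot be told apart from less RNA per cell.

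Counts on the non-coding loci were concentrated on very few entries. At4NC005680 alone took 58.2% of the 1014938 counts on the 711 loci, At5NC082220 took 14.6% and At5NC077900 12.6%, so that these 3 held 85.3% and the first 10 held 94.0%. At the other end the median locus had 18 counts over the 6 libraries, and 218 loci had fewer than 10. The threshold cut through a dense part of this range, with 72 loci at exactly 5 counts just inside it and 92 entries at 4 counts just outside. A further 11441 of the 13230 entries had no count in any library.

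**Figure D1:**
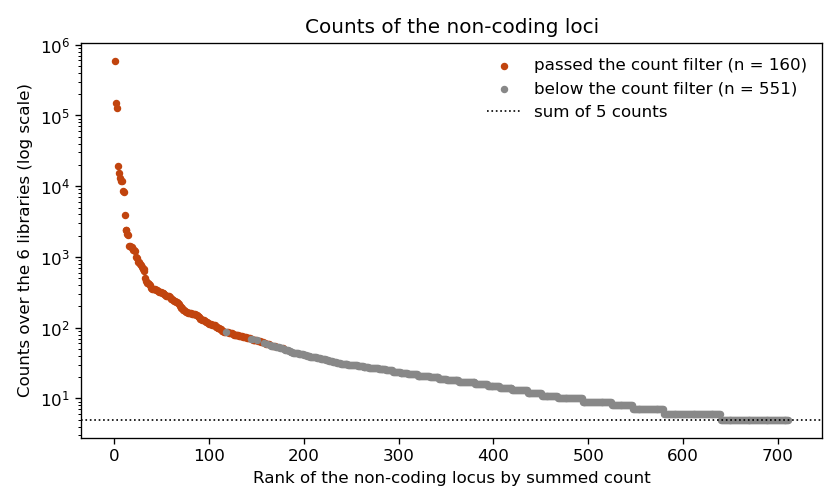
Counts summed over the 6 libraries (log scale) for each of the 711 non-coding loci, ranked from most to fewest; colour separates the 160 loci that passed the count filter of the test from the 551 that did not, and the dotted line marks the rule's threshold of 5. The curve drops from 590344 counts at the first locus to 8300 at the tenth and ends in a long shelf of loci with few counts.

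Most members were seen in most libraries in spite of these low counts. Of the 711 loci 398 had at least 1 count in all 6 libraries, 115 in 5, 130 in 4, 58 in 3 and 10 in 2. The fve-8 libraries detected 615, 645 and 645 of them and the WT libraries 603, 603 and 566, and with at least 5 counts asked for these became 283, 325 and 287 in fve-8 and 262, 255 and 224 in WT. These counts depend on depth and on how much of a library other RNA takes. By the digit in the identifier, which in Arabidopsis gene names gives the chromosome, there were 163 members for digit 1, 122 for 2, 154 for 3, 90 for 4 and 182 for 5. They made up 4.08% to 6.47% of the entries listed under each digit.

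The third fve-8 library stood apart from the other 5 in these loci. The 711 loci took 0.675%, 0.802% and 2.07% of all counts in fve-8 replicates 1, 2 and 3, and 0.829%, 0.819% and 0.767% in WT replicates 1, 2 and 3. Exact binomial 95% intervals, which cover counting error only, were 2.06% to 2.07% for fve-8 replicate 3 and no wider for the other libraries, so the gap was far beyond counting error. Between pairs of libraries, a chi-square per degree of freedom over the 711 loci came to 40.5 and 44.6 where fve-8 replicate 3 was in the pair and to 12.3 for the other fve-8 pair, against 2.62 to 3.96 for the WT pairs. Over all features the same measure came to 37.5 and 43.6 with fve-8 replicate 3 in the pair, 17.3 for the other fve-8 pair and 2.68 to 4.10 for the WT pairs, so this spread was not limited to the non-coding loci. Over the 711 loci without the 10 with the most counts it was 5.18 and 5.57, 2.36, and 1.47 to 2.54.

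The excess of that library sat mainly on a few loci but reached many. After TMM scaling the loci summed to 5831, 6649 and 20495 CPM in fve-8 replicates 1, 2 and 3 and to 9220, 9324 and 8581 CPM in the WT libraries. Of the 14255 CPM by which fve-8 replicate 3 exceeded the mean of the other fve-8 libraries, At4NC005680 supplied 68.4%, At5NC082220 11.8% and At5NC077900 11.3%. Of the 160 loci that passed edgeR's count filter, 80 had their highest value in fve-8 replicate 3 (50%, against 21.5% of all 19543 tested features), 20 had their lowest there, and 70 were at least 1.5 times the mean of fve-8 replicates 1 and 2 (43.8%, against 8.93%). With the 10 loci of the most counts set aside, 71 of 150 still had their highest value in that library. By summed count, fve-8 replicate 3 was highest at 22 of 52 tested loci with 50 to 100 counts and 42 of 85 with 100 to 1000. It was highest at 9 of 15 with 1000 to 10000 and 7 of 8 above that. These sums include fve-8 replicate 3 itself, so a high value there can move a locus to a higher range. Plastid genes were also high in that library on this scale, at 330867, 273513 and 381970 CPM in fve-8 replicates 1, 2 and 3 and 504203, 522612 and 501596 CPM in WT. Their median ratio of fve-8 replicate 3 to the mean of the other fve-8 libraries was 1.33, and 38.9% of 95 tested plastid genes were at least 1.5 times that mean. Their share of counts was 38.3%, 33.0% and 38.5% in fve-8 replicates 1, 2 and 3, and its part in the excess was not tested.

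The 5 loci with the largest ratio of fve-8 replicate 3 to the mean of fve-8 replicates 1 and 2 were picked among those averaging at least 1 CPM. At2NC000020 had 3.22, 7.70 and 25.6 CPM in fve-8 replicates 1, 2 and 3 and 4.76, 3.60 and 3.85 CPM in WT, a ratio of 4.68. At3NC086300 had 1.22, 1.31 and 5.52 CPM in fve-8 and 3.67, 2.76 and 2.68 CPM in WT, a ratio of 4.37. At3NC020890 had 4.55, 4.36 and 14.7 CPM in fve-8 and 5.53, 4.30 and 3.98 CPM in WT, a ratio of 3.31. In each of these the third fve-8 library was the highest of the 6, which a choice by that ratio makes likely beforehand. In At3NC086300 the other fve-8 libraries lay below all 3 WT libraries. The other two, At4NC005680 (4.07) and At1NC109810 (3.34), also belong to the 10 loci with the most counts.

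Annotated structural RNAs and other genes typed ncRNA in RefSeq were high in the same library, while genes typed lncRNA were not. All 9 tested snRNA genes had their highest value in fve-8 replicate 3, with a median ratio of 2.55 to the mean of the other fve-8 libraries. So did 25 of 38 tested snoRNA genes (median ratio 1.92). Most of the 9 snRNA genes, U2.2 to U2.7, are copies for the same snRNA. How reads matching several copies were counted is not known, so the 9 are not separate observations. U2.2 stood at only 0.634, 0.423 and 1.35 CPM in fve-8 replicates 1, 2 and 3. The U1 snRNA gene U1.5 (AT1G08115), whose product recognises the 5′ splice site, stood at 1546, 3196 and 6059 CPM in fve-8 and at 1685, 1593 and 1872 CPM in WT. It was high in the second fve-8 library as well as in the third. Genes typed ncRNA came nearest to the NC loci, as 39 of 83 tested (47.0%) had their highest value there and 41.0% were at least 1.5 times the mean of the other fve-8 libraries, with a median ratio of 1.33. The median ratio was 1.37 over the 160 tested NC loci, 0.992 over 124 genes typed lncRNA in RefSeq and 0.996 over 18663 protein-coding genes, and 27 of the 124 lncRNA genes (21.8%) had their highest value in fve-8 replicate 3. The single nuclear ribosomal RNA gene with counts, AT3G41768, stood at 27.0, 34.2 and 67.3 CPM in fve-8 and at 35.1, 39.4 and 35.5 CPM in WT. Whether these classes and the NC loci share a source of the excess was not tested.

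**Figure D2:**
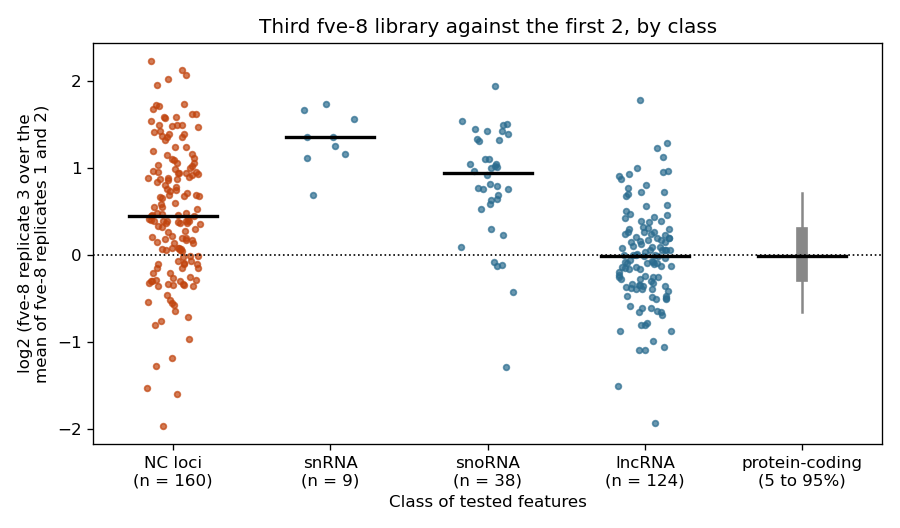
Log2 ratio of fve-8 replicate 3 to the mean of fve-8 replicates 1 and 2, one point per tested feature and a black bar at each median, for the NC loci and for genes typed snRNA, snoRNA and lncRNA in RefSeq; for protein-coding genes the thick grey line spans the interquartile range and the thin one the 5% to 95% range. All 9 snRNA genes lie above 0, the NC loci spread widely with a median ratio of 1.37, and the lncRNA genes centre near a ratio of 0.992.

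The WT libraries were much closer to each other. Over the 160 tested loci the median coefficient of variation was 34.0% in fve-8 and 16.9% in WT, against 14.4% and 9.05% over all tested features. The median level was 1.54 CPM over these loci and 8.34 CPM over all tested features, and lower counts carry more counting error. Among the 10 loci with the most counts it ran from 13.5% to 87.6% in fve-8 and from 3.80% to 20.5% in WT. One WT exception, singled out after its values were seen, was At3NC056200, which had 3.01, 9.48 and 8.65 CPM in fve-8 and 37.3, 20.6 and 7.01 CPM in WT. Its coefficient of variation of 70.1% in WT was the largest among the loci that averaged at least 10 CPM.

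Summed over all 711 loci, fve-8 and WT did not separate. The loci took 1.18% ± 0.770 of counts in fve-8 and 0.805% ± 0.0330 in WT (SD, n = 3 each, exact two-sided permutation p = 0.9), and 10992 ± 8241 CPM in fve-8 and 9042 ± 402 CPM in WT (exact two-sided permutation p = 1). The smallest p that 3 against 3 libraries allow is 0.1. The direction rested on fve-8 replicate 3. Without that library the sum was 6264 ± 591 CPM in fve-8 (n = 2) and 8988 ± 416 CPM in WT (n = 3), a ratio of 0.697, with an exact two-sided permutation p of 0.1, again the smallest possible. The share was then 0.738% ± 0.0896 in fve-8 and 0.805% ± 0.0330 in WT (exact permutation p = 0.3). Leaving out the first 10 loci instead, the remaining 701 summed to 597 ± 148 CPM in fve-8 and 577 ± 43.8 CPM in WT (SD, n = 3 each, exact permutation p = 1).

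Of the 10 loci with the most counts edgeR called 0 with all 6 libraries, beside 11.7% of all tested features called in either direction. Of these 10 loci 2 had an unadjusted p under 0.05, DESeq2 and limma-voom called 0, and the likelihood-ratio test called 1. At4NC005680 had 3024, 3332 and 12931 CPM in fve-8 replicates 1, 2 and 3 and 5313, 5598 and 5073 CPM in WT, so the first and second fve-8 libraries were below, and the third above, every WT library. Its log2 fold change was 0.27 ± 0.47 (SE, edgeR adjusted p = 0.751) with all libraries and -0.73 (edgeR adjusted p = 0.00128) without fve-8 replicate 3. At5NC082220 showed the same split, with 957, 892 and 2609 CPM in fve-8 and 1569, 1469 and 1324 CPM in WT. Its log2 fold change was 0.03 ± 0.35 with all libraries and -0.64 (edgeR adjusted p = 0.00186) without fve-8 replicate 3. At5NC077900 differed from both, since its 682, 1265 and 2588 CPM in fve-8 put the second library as well as the third above the 953, 881 and 969 CPM of WT, and its log2 fold change was 0.69 ± 0.37 (edgeR adjusted p = 0.251), or 0.08 without fve-8 replicate 3. It was called higher without fve-8 replicate 1 (1.04, edgeR adjusted p = 0.0217).

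In this group 3 further loci were called lower once fve-8 replicate 3 was set aside. At1NC109810 had 73.5, 74.9 and 248 CPM in fve-8 and 93.6, 116 and 102 CPM in WT (0.34 with all libraries, and -0.47, edgeR adjusted p = 0.00797, without the third). At5NC068430 had 91.9, 81.6 and 261 CPM in fve-8 and 115, 111 and 99.7 CPM in WT (0.41, and -0.31 without the third). At3NC041450 had 127, 108 and 218 CPM in fve-8 and 145, 154 and 143 CPM in WT (0.04, and -0.31 without the third). On the TMM scale the first and second fve-8 libraries stood below every WT library in all 3. The TMM factors were 1.16 and 1.21 in those fve-8 libraries and 0.879 to 0.899 in WT. Scaled by library totals instead, that order was not kept at any of the 3. Together, 5 of the 10 loci were called lower and 0 higher in that fit, in which 10% of all tested features were called lower and 12.3% higher, and 9 of the 10 had a positive log2 fold change with all libraries against 3 without fve-8 replicate 3.

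The other 4 loci of the group were not called in that fit. At3NC056191 had 131, 147 and 445 CPM in fve-8 and 163, 135 and 107 CPM in WT (0.84 ± 0.40, edgeR adjusted p = 0.204), and At5NC034990 had 61.8, 56.7 and 167 CPM in fve-8 and 64.8, 70.8 and 66.1 CPM in WT (0.50 ± 0.34, edgeR adjusted p = 0.379). On the TMM scale At5NC034990 had the same split, with the first and second fve-8 libraries below and the third above every WT library. Its log2 fold change was -0.17 (edgeR adjusted p = 0.197) without fve-8 replicate 3. With library totals its first and second fve-8 libraries stood above every WT library instead. At2NC000010 was the one whose 3 fve-8 libraries all lay above the WT ones on the TMM scale. They stood at 63.9, 74.3 and 177 CPM, against 58.9, 63.3 and 52.1 CPM in WT (0.85 ± 0.32, edgeR adjusted p = 0.115). It was called higher without fve-8 replicate 1 (1.11, edgeR adjusted p = 0.0300). At2NC013971 was the only one of the 10 with its lowest value in the third library. It had 106, 106 and 83.0 CPM in fve-8 against 134, 132 and 117 CPM in WT, groups that did not overlap on the TMM scale (-0.38 ± 0.12, edgeR adjusted p = 0.0669). It was called lower without fve-8 replicate 1 (-0.44, edgeR adjusted p = 0.0486). With library totals the groups overlapped and its log2 fold change was -0.03 (edgeR adjusted p = 0.888).

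**Figure D3:**
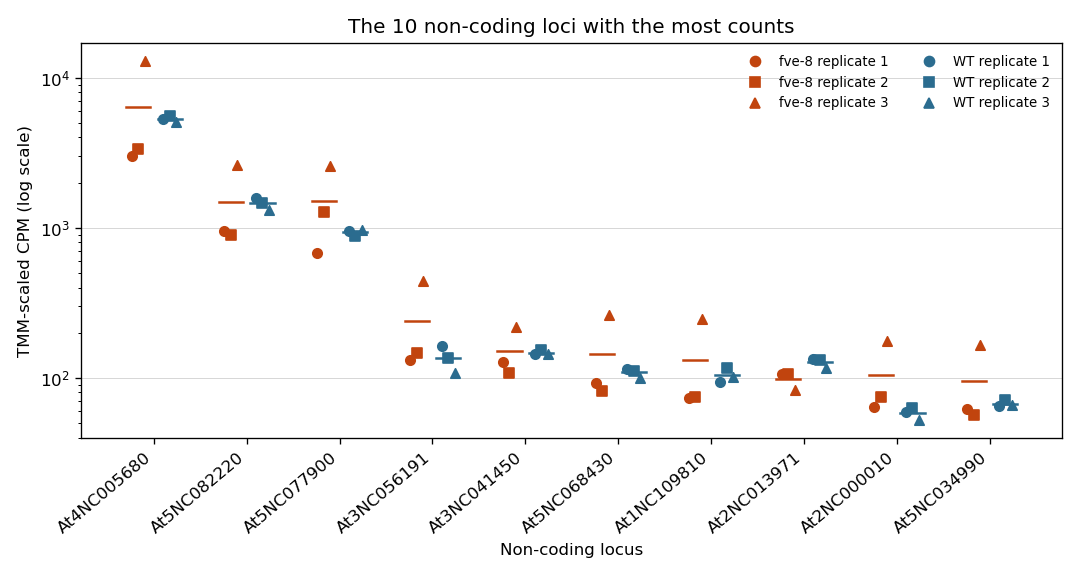
TMM-scaled CPM (log scale) of the 10 non-coding loci with the most counts, with fve-8 libraries left of WT libraries at each locus, one symbol per replicate and a bar at each mean. In 9 of the 10 loci the triangle of fve-8 replicate 3 is the highest point, while the WT libraries lie close together.

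Of the 160 loci that passed the count filter, 10 passed as higher and 5 as lower in fve-8 at an adjusted p under 0.05 (edgeR, quasi-likelihood). These are 6.25% and 3.12% of the tested loci, against 6.6% and 5.07% of all 19543 tested features, so the members were called about as often as other features were. A further 551 members did not pass the filter. At least 2-fold differences were found for all 10 of the loci called higher and for 4 of the 5 called lower. These are 6.25% and 2.5% of the tested loci, beside 2.29% and 0.65% of all tested features called with such a difference. The median level was 1.54 CPM for the tested loci and 8.34 CPM for all tested features, and its part in this was not tested. Of the 10 loci called higher, 6 had 50 to 100 counts over the 6 libraries. These passed the filter only through their fve-8 libraries, so their large differences are partly set by the filter. Every fve-8 library lay above every WT library at 25 loci (15.6%, against 15.6% of all tested features) and below at 23 (14.4%, against 17.4%). The median log2 fold change of the tested loci was 0.09, beside -0.01 for all tested features.

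Single libraries and the scaling moved these counts. Without fve-8 replicate 3, 12 of 174 tested loci were called higher and 20 lower, against 12.3% and 10% of all features tested in that fit, and the median log2 fold change became -0.11. All 5 loci called lower and 9 of the 10 called higher were called again there, and 15 more were called lower. Of these 15, 11 had their highest value of all 6 libraries in fve-8 replicate 3, beside 50% of the 160 loci tested with all libraries. Leaving out a library lowers the fold change of loci that were high in it, so this overlap follows largely from the choice. The loci called higher and lower numbered 17 and 4 of 173 without fve-8 replicate 1. They numbered 8 and 2 of 174 without fve-8 replicate 2. Of all tested features, 6.85% and 5.17% were called in the first of these fits and 2.23% and 1.46% in the second. Without WT replicate 1 the loci numbered 2 and 1 of 181, beside 1.08% and 0.642% of all tested features. Without WT replicate 2 they numbered 3 and 1 of 181, beside 1.11% and 0.712%. Without WT replicate 3 they numbered 5 and 3 of 183, beside 2.41% and 1.38%. Leaving out a WT library thus lowered the calls over all features as well. With library totals in place of TMM scaling 35 of 160 were called higher and 3 lower, beside 28.6% and 0.982% of all tested features. That scaling moved the median of all tested features to 0.33 and the median of the loci to 0.42.

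**Figure D4:**
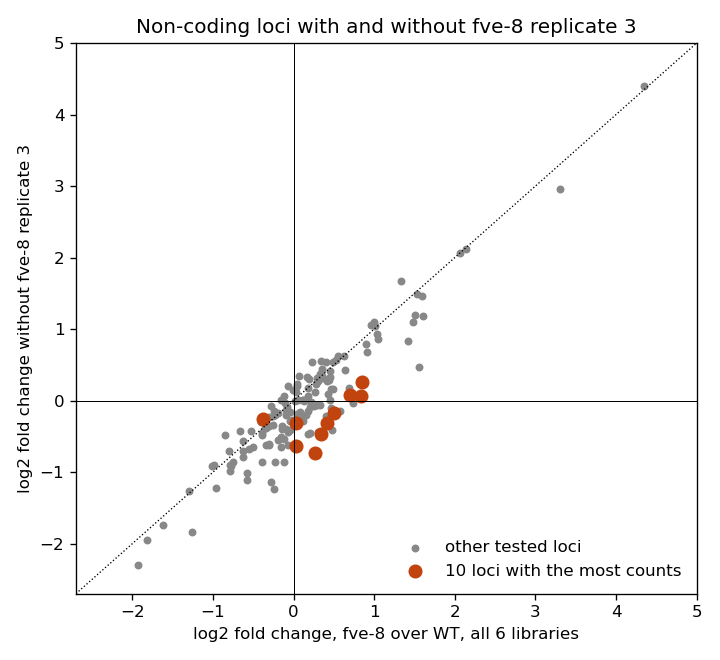
Log2 fold change of fve-8 over WT for 159 tested non-coding loci, with all 6 libraries on the horizontal axis and without fve-8 replicate 3 on the vertical axis; the dotted line marks equal values and the large points are the 10 loci with the most counts. At3NC069230, with 0 counts in WT, is left out; most large points lie right of 0 on the horizontal axis and below 0 on the vertical axis.

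The loci called higher had low levels in WT, with a mean of 2.81 CPM at most and 0 counts in 1 case. At3NC069230, At2NC017220, At4NC014390, At5NC042580, At1NC090630 and At4NC055120 had too few counts in WT to pass the count filter there. They were tested only through their fve-8 libraries, so their low WT level is partly set by the filter and is a description. At3NC069230 had 27, 38 and 34 counts in the fve-8 libraries and 0 counts in each WT library, or 1.43, 1.61 and 2.09 CPM in fve-8. With 3 counts over the WT group as the floor it was at least 25.6-fold higher in fve-8 (edgeR adjusted p = 0.00149). At2NC017220 had 30, 14 and 16 counts in fve-8 and 1, 0 and 1 in WT, 23.3 times as much (95% interval for counting error 6.17 to 197) (edgeR adjusted p = 0.00810). At4NC014390 had 11, 20 and 23 counts in fve-8 and 0, 2 and 2 in WT, a log2 fold change of 3.30 ± 0.66 (edgeR adjusted p = 0.0143). At each of the 3 every fve-8 library exceeded every WT library, which their entry through fve-8 and their call make likely beforehand. The call of At2NC017220 was lost without WT replicate 1 or 2 (edgeR adjusted p = 0.0544 and 0.0543). That of At4NC014390 was lost without WT replicate 1, 2 or 3 (edgeR adjusted p = 0.0745, 0.0720 and 0.0513).

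At5NC044250 was found in every library of both genotypes. It stood at 3.75, 2.96 and 3.56 CPM in fve-8 and at 0.708, 0.706 and 0.893 CPM in WT, a log2 fold change of 2.14 ± 0.23 (SE, edgeR adjusted p = 0.00120), and was called in each of the 15 other fits. At5NC042580 had 0.687, 1.31 and 1.04 CPM in fve-8 and 0.129, 0.257 and 0.343 CPM in WT (2.06 ± 0.44, edgeR adjusted p = 0.0189), and its call was lost without fve-8 replicate 2 or any 1 of the WT libraries. At1NC090630 had 0.899, 0.804 and 1.84 CPM in fve-8 and 0.450, 0.257 and 0.412 CPM in WT (1.60 ± 0.45, edgeR adjusted p = 0.0462), a call that ended with limma-voom and on leaving out any library other than fve-8 replicate 1. The libraries of the 2 genotypes did not overlap at these 3, which a call from the same values makes likely beforehand. The other 4 loci called higher had log2 fold changes of 1.03 to 1.59, and all 4 were also called without fve-8 replicate 3. Leaving out WT replicate 1 ended all 4 of these calls, leaving out WT replicate 2 ended 3, and leaving out either WT replicate 3 or fve-8 replicate 2 ended 2.

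The 5 loci called lower were present in both genotypes. At2NC026170 had 0.951, 1.02 and 1.35 CPM in fve-8 and 4.25, 3.92 and 3.43 CPM in WT (-1.82 ± 0.22, edgeR adjusted p = 0.00170), and was called in each of the 15 other fits. At1NC047720 had 0.370, 0.719 and 1.17 CPM in fve-8 and 3.09, 3.21 and 2.13 CPM in WT (-1.93 ± 0.34, edgeR adjusted p = 0.00974). At5NC034400 had 1.32, 1.18 and 3.37 CPM in fve-8 and 4.44, 4.37 and 4.81 CPM in WT (-1.26 ± 0.34, edgeR adjusted p = 0.0409). In the last of these the third fve-8 library came closest to WT, and without it the log2 fold change was -1.84.

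The other 2 loci called lower were At1NC052410 and At2NC013950. At1NC052410 had 0.476, 0.889 and 0.675 CPM in fve-8 and 2.25, 1.35 and 1.51 CPM in WT (-1.29 ± 0.32, edgeR adjusted p = 0.0320). At2NC013950, with 2408 counts over the 6 libraries, had 16.9, 18.0 and 22.9 CPM in fve-8 and 29.6, 29.0 and 26.1 CPM in WT (-0.56 ± 0.13, edgeR adjusted p = 0.0249). It was also the one called locus with a change under 2-fold. With library totals its log2 fold change was -0.23 (adjusted p = 0.188) and that of At1NC052410 was -0.95 (adjusted p = 0.0504). The call of At1NC047720 was lost without WT replicate 1 or 2. Those of At1NC052410 and At5NC034400 ended on leaving out any library other than fve-8 replicate 3, and that of At2NC013950 without fve-8 replicate 2 or any 1 of the WT libraries.

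**Figure D5:**
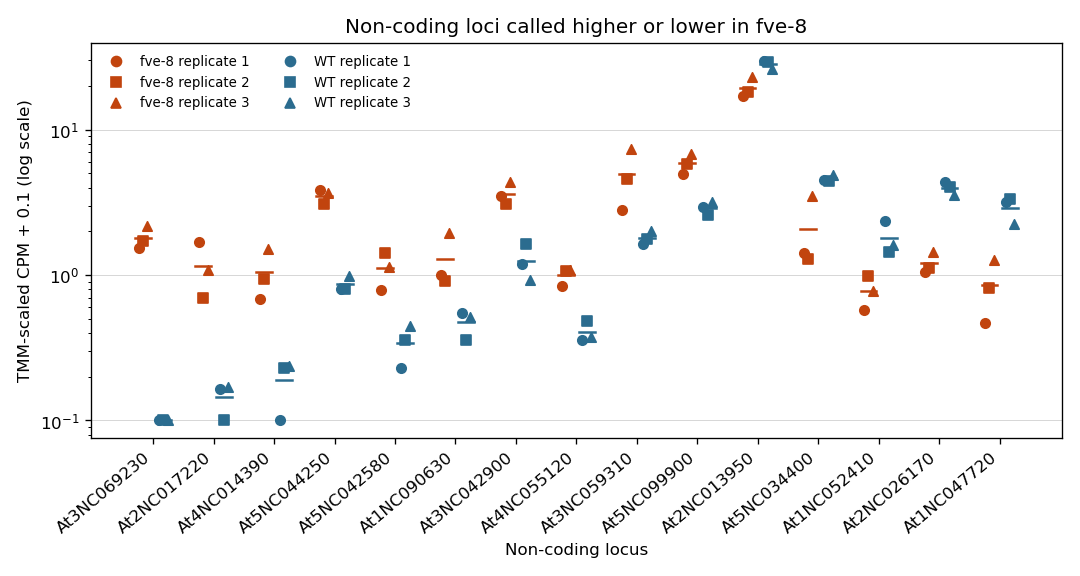
TMM-scaled CPM plus 0.1 (log scale) of the 15 called non-coding loci, ordered by log2 fold change, with fve-8 libraries left of WT libraries, one symbol per replicate and a bar at each mean. The fve-8 and WT libraries do not overlap at any of the 15 loci, which calling them from these same values makes likely beforehand. Points at 0.1 are libraries with 0 counts.

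The authors' deposited table lists 10 of these non-coding loci as higher and 5 as lower at an adjusted p under 0.05, out of 289 members for which it gives one. Of the 15 loci called here 13 stand in the authors' deposited table with a call in the same direction. The 2 that were not, At4NC055120 and At1NC090630, have an adjusted p of 0.0990 and of 0.0562 in the authors' deposited table.

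The 551 loci below the filter together took 0.0106% ± 0.000404 of counts in fve-8 and 0.00783% ± 0.000585 in WT (SD, n = 3 each), groups that did not overlap (exact two-sided permutation p = 0.1, the smallest possible). After TMM scaling they summed to 95.2 ± 12.8 CPM in fve-8 and 87.9 ± 6.71 CPM in WT (exact permutation p = 0.6). The plastid share of counts was 33.0% to 38.5% in fve-8 and 44.9% to 45.9% in WT, and its part in this difference was not tested. Of all 711 members 8 had 0 counts in fve-8 and 14 had 0 counts in WT, and 1 of these, At3NC069230, passed the filter. The most counts among the rest were the 17 of At1NC051890 in fve-8 against 0 in WT and, the other way, the 0 in fve-8 against 9 in WT of At4NC016210. A count of 0 in a library allows up to 3 counts, or 0.127 to 0.206 CPM, so absence from a genotype cannot be read from these loci.

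Long non-coding RNA genes with known roles were set beside these loci. IPS1 (AT3G09922) and At4 (AT5G03545), decoys that sequester the phosphate-starvation miRNA miR399, had log2 fold changes of -0.69 and -0.44 (edgeR adjusted p = 0.490 and 0.381). At4 stood at 2.91, 2.41 and 6.14 CPM in fve-8 and at 4.57, 5.27 and 5.43 CPM in WT, again with the third fve-8 library highest, and was called lower without that library (-0.93, edgeR adjusted p = 0.00469). AT2G34655, to which the reference table gives no symbol, had 5.07, 4.91 and 4.85 CPM in fve-8 and 6.82, 6.55 and 6.39 CPM in WT (-0.41, edgeR adjusted p = 0.0719), with no excess in the third library. Of the 4 genes on this list 3 passed the filter, all typed protein-coding in the RefSeq table, and edgeR called 0, with 1 at an unadjusted p under 0.05, and the other 3 methods tried also called 0 with all 6 libraries. Among 124 tested genes typed lncRNA in RefSeq edgeR called 0 higher and 2 lower, beside 6.6% and 5.07% of all tested features. Their median log2 fold change was -0.05. Of these genes 12 were higher at an unadjusted p under 0.05, and the likelihood-ratio test called 3 higher while DESeq2 and limma-voom called 0.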

How the data were processed

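RNA was measured in 3 fve-8 and 3 WT libraries. The authors deposited raw whole-number counts per feature and library, not normalized, with their own log2 fold changes and adjusted p-values in the same deposited table, which are printed only where that table is named. Per the submitters' processing notes, TopHat2, SAMtools, HTSeq and edgeR were used. The sources used here give no versions, genome build or settings for strand and multi-mapping reads, so reads of overlapping, antisense or near-identical loci may be split or lost. The small RNA table was not used.

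All features were fitted together in edgeR 4.0.16 (R 4.3.3) with filterByExpr, TMM scaling, genotype as the only term, quasi-likelihood F tests and adjustment by Benjamini-Hochberg over 19543 features. The procedure was tested on simulated data. Each SE is the log2 fold change divided by the root of its F statistic; SDs are over libraries. Named loci are the 10 with the highest mean CPM, up to 6 called per direction, and the 5 with the largest ratio of fve-8 replicate 3 to the other fve-8 libraries at a mean of at least 1 CPM. Members, lists and rules were chosen with earlier results of these data known. Alternatives were another normalization, library totals, TMM from nuclear genes, DESeq2 1.42.0, limma-voom (limma 3.58.1), edgeR's likelihood-ratio test, other count filters, the replicate block, and each library left out.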

Additional observations from a re-analysis of the deposited data

How the results depend on the processing

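The counts of loci called higher and lower, 10 and 5, stayed within 1.5 times under DESeq2 size factors, TMM from nuclear genes alone, a filter of at least 10 counts in 3 libraries, DESeq2 and limma-voom. They became 35 and 3 of 160 with library totals, where 28.6% and 0.982% of all tested features were called higher and lower. With no count filter they were 24 and 9 of 1789 tested loci, beside 6.08% and 4.39% of all features. The likelihood-ratio test called 17 and 10 of 160, beside 9.13% and 6.76%. With the replicate block 3 were lower, and 2.36% of all features. With 1 library left out they ranged from 2 to 17 higher and from 1 to 20 lower. The shares of all tested features ranged from 1.08% to 12.3% higher and from 0.642% to 10% lower. Labels share replicate numbers without giving a common batch, and same-numbered libraries did not deviate together (correlations across features of -0.01, -0.06 and -0.15), and no fve-8 library correlated best with the WT library of its own number. The block kept 12 of the 15 calls and ended those of At1NC052410 (-1.29), At2NC013950 (-0.56) and At4NC055120 (1.52). The difference of fve-8 minus WT in share of counts ranged from -0.0666 to 0.629 percentage points, and in summed CPM from -2724 to 4386, with 1 library left out, negative only without fve-8 replicate 3. A sum of at least 1 count gave 1789 members. Over 24 named loci and 15 alternatives, 292 of 360 fits kept direction and side of the threshold, 35 lost a call, 21 gained one and 17 reversed, 5 of which are among those that gained a call. Limma-voom and the replicate block gave -0.057 and -0.099 for At4NC005680, -0.14 and -0.17 for At5NC082220, and -0.027 and -0.032 for At3NC041450. With 1 library left out these ranged from -0.73 to 0.61, from -0.64 to 0.29 and from -0.31 to 0.23, and the others that reversed from -0.31 to 0.69 for At5NC068430, -0.47 to 0.63 for At1NC109810, -0.17 to 0.76 for At5NC034990, -0.039 to 1.05 for At3NC020890 and -1.24 to 0.12 for At3NC086300, which was 0.057 with library totals. The cause was not tested. The count filter left out every locus under 51 counts and some with up to 87.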
